A study of Mus musculus with 10 samples.

Results

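Stefins and cystatins are small proteins that bind and block cysteine proteases of the papain type, among them most lysosomal cathepsins. The family was followed here through 7 genes, Stfa1, Stfa2, Stfa2l1, Stfa3, Cstb, Cst3 and Cst7, with every probe set that the array annotation lists for them. Of the 18193 genes on the array, 5 are members with probe sets of their own. Cstb has 2 and Stfa2l1, Stfa3, Cst3 and Cst7 have 1 each. Stfa1 is listed only on a probe set that it shares with its neighbour Cstdc5, so that value belongs to both genes, and for Stfa2 the annotation lists no probe set. The members were proposed with their levels in these groups already known, so their levels and differences are given as a description, without p-values, and they support nothing further.

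Expression was measured with 1 Affymetrix mouse genome array for each of 10 cultured mouse leukemia stem cell samples in 4 groups. RH-RAS lines express DNMT3A with the R882H mutation together with NRAS with the G12D mutation, and lines 1 to 4, derived independently, were profiled untreated. Lines 1 and 3 were profiled again after 4 days in 1 µM SGC0946, an inhibitor of the histone methyltransferase Dot1l. The other groups are a single line transformed by MLL-AF9 and lines 1 to 3 transformed by NUP98-JARID1A, and all cells grew with stem cell factor. Whether the NUP98-JARID1A lines arose independently, and what vehicle the untreated cells received, is not stated in the labels, so p-values for the NUP98-JARID1A lines measure only the spread between these samples. The progenitor markers Kit, Cd34, Flt3, Ptprc, Mpo and Myb, 6 of 6, lay above the array median on all 10 arrays, although 3 of the 6 fell under SGC0946, as given below. Values are log2 intensities made by the authors with RMA, with array medians of 5.72 to 5.82, and levels are compared only within a probe set.

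Stefins are the type 1 cystatins. They lack a signal peptide and act inside the cell. Mice carry a cluster of stefin A genes, several of which are abundant in neutrophils and their precursors, whereas stefin B, encoded by Cstb, is made by most cells. Type 2 cystatins are secreted. Cystatin C, encoded by Cst3, is made widely and strongly by macrophages and dendritic cells, and cystatin F, encoded by Cst7, is made by blood cells, reaches their lysosomal compartments and restrains cathepsin C, the enzyme that activates granule serine proteases.

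The 4 stefin A genes are close relatives. Whether a stefin A probe set also picks up RNA of another member was not tested, since probe sequences were not used here, so the values named Stfa2l1 and Stfa3 rest on the array annotation, and the upstream bases below say nothing of probe specificity. The 250 bases upstream of each start, from the RefSeq promoter table of GRCm38.p6, are shown because the 3 of these genes with a probe set were high and low on the same arrays apart from Stfa3 in MLL-AF9. Stfa2 was not analysed here beyond this sequence. An upstream stretch was found for 6 of the 7 members, all but Cstb. Capitals mark the runs of at least 13 bases that all 4 stretches share, found after the sequences were seen.
Stfa1: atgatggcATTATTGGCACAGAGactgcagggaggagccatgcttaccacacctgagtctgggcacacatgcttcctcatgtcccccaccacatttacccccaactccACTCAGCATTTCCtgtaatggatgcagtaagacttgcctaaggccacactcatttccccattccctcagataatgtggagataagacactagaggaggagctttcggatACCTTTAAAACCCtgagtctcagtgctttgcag
Stfa2: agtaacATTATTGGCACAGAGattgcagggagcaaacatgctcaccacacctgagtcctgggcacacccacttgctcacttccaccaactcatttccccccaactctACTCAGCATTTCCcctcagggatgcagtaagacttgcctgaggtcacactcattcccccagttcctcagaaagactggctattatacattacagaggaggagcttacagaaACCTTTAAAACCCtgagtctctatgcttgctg
Stfa2l1: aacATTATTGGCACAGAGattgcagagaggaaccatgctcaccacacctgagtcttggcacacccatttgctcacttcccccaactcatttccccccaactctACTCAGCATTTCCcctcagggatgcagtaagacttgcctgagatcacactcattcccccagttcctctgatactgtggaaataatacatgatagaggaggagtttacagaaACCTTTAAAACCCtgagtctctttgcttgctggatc
Stfa3: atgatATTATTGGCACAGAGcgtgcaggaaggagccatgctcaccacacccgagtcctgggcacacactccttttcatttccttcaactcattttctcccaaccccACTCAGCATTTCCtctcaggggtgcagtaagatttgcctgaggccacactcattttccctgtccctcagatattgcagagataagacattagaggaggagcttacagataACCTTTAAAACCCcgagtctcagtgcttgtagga

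These stretches lie at chr16:36276898-36277147 on the plus strand for Stfa1, chr16:36408364-36408613 on the minus strand for Stfa2, chr16:36156561-36156810 on the plus strand for Stfa2l1 and chr16:36455393-36455642 on the minus strand for Stfa3. Aligned end to end, any pair of them was identical at 80.2% to 89.4% of aligned positions, and Stfa2 and Stfa2l1 were the closest pair. Against the same stretch of Cst3 or Cst7 the identity was 39.5% to 46.5%. Cluster neighbours ranged widely. Cstdc5 was 81.2% identical to Stfa1 and 69.9% to 71.8% to the others. Cstdc4 was at 67.3% to 72.0%, Csta3 at 56.4% to 60.4%, and Csta1, Csta2 and Cstdc3 at 37.4% to 48.4%. The upstream likeness is thus not particular to the 4 members. The first shared run, ATTATTGGCACAGAG, occurred in 5 of 32851 upstream stretches in the table, on either strand, and the only gene outside the 4 was Cstdc5, the gene that shares a probe set with Stfa1. The run ACTCAGCATTTCC occurred in 9 stretches and the run ACCTTTAAAACCC, whose first base lies 32 to 36 bases before the start, in 8. All the genes outside the 4 that held either were Csta1, Csta3, Cstdc3, Cstdc4, Cstdc5 or Gm7260, which lie in the same cluster.

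Letters of binding motifs known from myeloid genes were also searched on both strands of the 250 bases in all 6 members. The C/EBP letters TTGCNNAA, held by 9.56% of all stretches, were found once, as TTGCCTAA at bases 109 to 102 before the Stfa1 start. The PU.1 letters GAGGAAGT (2.44% of all stretches) and the TATA letters TATAAA (12.4%) were not found in this window in any of the 6.

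The stefin A genes were low on every RH-RAS array and high on every NUP98-JARID1A array. Stfa2l1 measured 2.87, 2.68, 2.83 and 2.88 in untreated RH-RAS lines 1 to 4 and 2.83 and 2.80 in treated lines 1 and 3. It measured 8.86 in MLL-AF9 and 10.80, 7.67 and 9.49 in NUP98-JARID1A lines 1 to 3. The RH-RAS values all lay far below the array median, where array intensities compress differences, so fold changes from such levels are uncertain.

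The probe set shared by Stfa1 and Cstdc5 had the same shape. It measured 4.28, 4.56, 4.35 and 4.29 in untreated RH-RAS lines 1 to 4, 4.42 and 4.33 in the treated lines, 11.90 in MLL-AF9 and 14.17, 10.37 and 12.37 in NUP98-JARID1A lines 1 to 3. Across the 10 arrays its values and those of Stfa2l1 had a Pearson r of 0.999. The arrays fall into a low and a high set, so this r describes that split and the order within the high set.

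Stfa3 differed from both in MLL-AF9. It measured 3.49, 3.22, 3.25 and 3.30 in untreated RH-RAS lines 1 to 4 and 3.74 and 3.25 in treated lines 1 and 3. In NUP98-JARID1A lines 1 to 3 it measured 12.84, 8.31 and 10.41, but in MLL-AF9 it measured 5.67, below the median of that array. The MLL-AF9 value was therefore 4.86 below the NUP98-JARID1A mean for Stfa3, whereas for Stfa2l1 and the shared probe set it lay inside the NUP98-JARID1A range, 0.46 and 0.40 below the mean. With 1 MLL-AF9 array this contrast among the stefins has no replicate check.

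**Figure D1:**
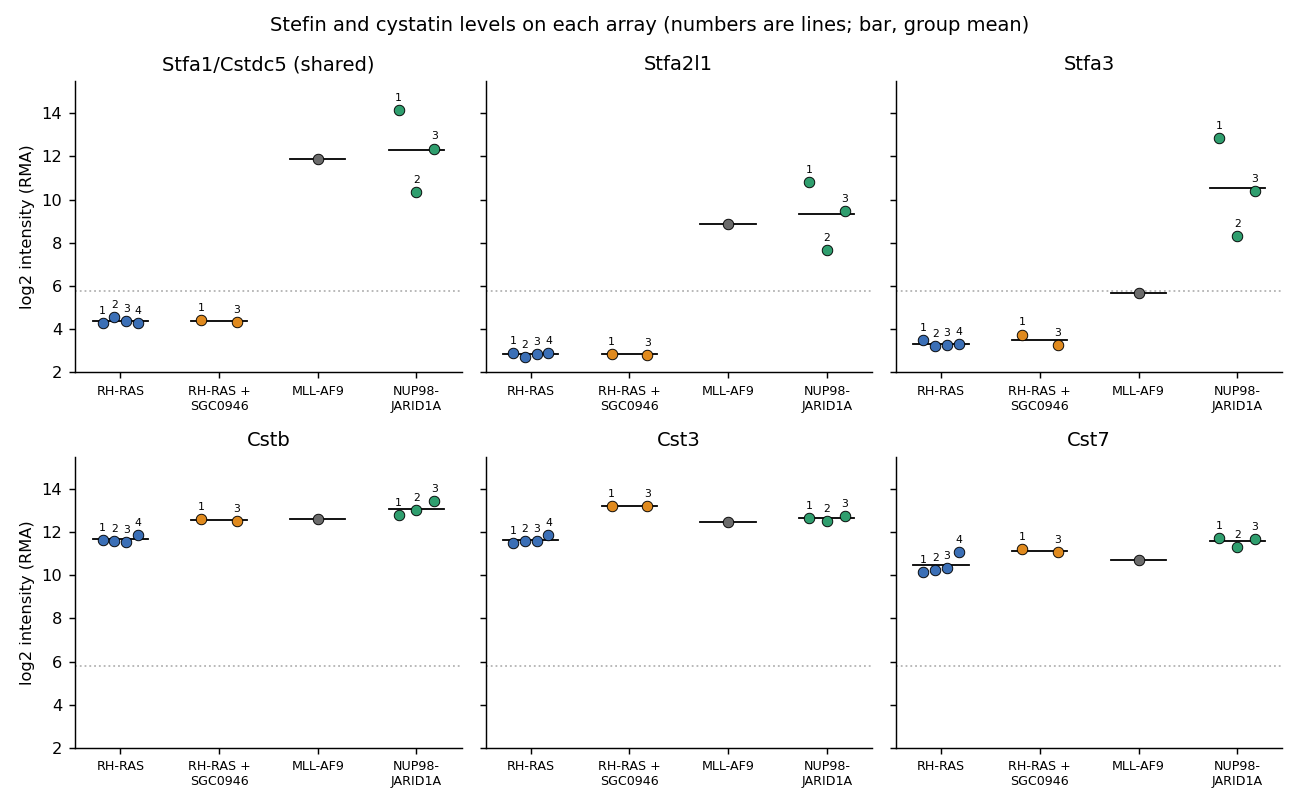
Log2 intensity (y axis) of 5 members and of the probe set shared by Stfa1 and Cstdc5 on each array (points, numbered by line) in the 4 groups (x axis), with group means as bars and the mean of the array medians as a dotted line. The 3 stefin A panels jump from below the median in RH-RAS lines to 7.67 or higher in NUP98-JARID1A lines, while Cstb, Cst3 and Cst7 stay above the median throughout.

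NUP98-JARID1A minus RH-RAS differences of the stefin A genes, on the log2 scale, were 6.50 ± 0.60 for Stfa2l1, 7.21 ± 0.86 for Stfa3 and 7.93 ± 0.73 for the shared probe set (SE, n = 3 and 4 arrays). As folds these are 90.7, 147.7 and 244.1. All SEs given for members come from one limma fit of all 45037 probe sets that are not Affymetrix controls, in which each probe set keeps its own value. The lowest NUP98-JARID1A array exceeded the highest untreated RH-RAS array by 4.80 for Stfa2l1, 4.82 for Stfa3 and 5.81 for the shared probe set. MLL-AF9 exceeded the RH-RAS mean by 6.05 for Stfa2l1, 7.53 for the shared probe set and 2.35 for Stfa3.

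The 3 NUP98-JARID1A lines were far apart in these genes. Line 1 was highest, line 3 between and line 2 lowest in all 3 stefin A probe sets, and the span was 3.12 for Stfa2l1, 3.80 for the shared probe set and 4.53, or 23.1-fold, for Stfa3. A span of at least 2 over these lines was seen for 2.64% of the 11992 genes tested, and the order of lines for 17.2%. In bulk RNA, fewer cells that express a gene and less RNA per cell cannot be told apart.

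Late neutrophil markers moved with the stefins as a mean, though single markers departed from it. The mean level of the 9 measured markers (Ltf, Camp, Ngp, Lcn2, S100a8, S100a9, Mmp8, Mmp9 and Cd177) was 4.75 to 4.92 in untreated RH-RAS lines, with at most 1 of the 9 above the array median. It was 5.14 and 5.17 in treated lines and 9.55 in MLL-AF9, and in NUP98-JARID1A lines 1 to 3 it was 12.09, 9.06 and 11.17, with 8 or 9 markers above the median. Lines 1, 3 and 2 thus took the same order as in the stefins. Of the 9 markers, 8 were higher in NUP98-JARID1A lines by limma, where 32.5% of all genes were higher, and the other did not pass. Markers below the median on all RH-RAS arrays passed the filter on low values only through the other groups. Under SGC0946, 1 of the 9 rose, where 6.84% of all genes rose. Mmp8 measured 5.02 and 5.21 in untreated and 7.55 and 7.66 in treated lines 1 and 3. Mmp9 was 6.06 in MLL-AF9 and 6.16 in NUP98-JARID1A line 2, inside its untreated RH-RAS range of 5.71 to 6.19. Cd177 was highest in NUP98-JARID1A line 3, at 10.11 against 8.77 in line 1. The part of these markers in the stefin levels was not tested.

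**Figure D2:**
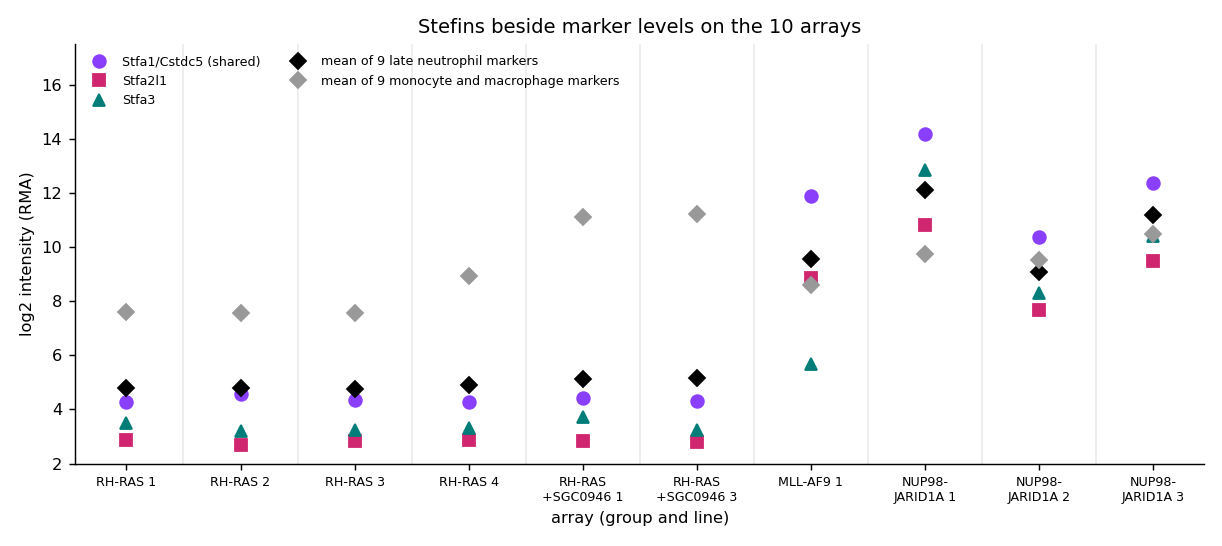
Log2 intensity (y axis) of the 3 stefin A probe sets and the mean level of 9 late neutrophil and 9 monocyte and macrophage markers on each of the 10 arrays (x axis). The stefin points stay between 2.68 and 4.56 on all RH-RAS arrays, treated arrays included, while the macrophage mean climbs to 11.12 and 11.23 in the treated lines.

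Genes with the most similar pattern over the 10 arrays were chosen by Pearson r among all genes tested. For Stfa2l1 they were Slc22a4, an organic cation transporter (r = 0.998), Ngp, a neutrophil granule protein (0.997), and Lbp, the lipopolysaccharide-binding protein (0.996). For the shared probe set the same genes led, at 0.997, 0.996 and 0.996. For Stfa3 they were Padi4, which converts arginine in histones to citrulline (0.997), 2700038G22Rik (0.995) and Ltf, the granule protein lactoferrin (0.992). Padi4 and Ltf, like Stfa3, were nearer to RH-RAS than to NUP98-JARID1A in MLL-AF9. Padi4 measured 6.24 there against a mean of 4.87 in RH-RAS and 9.97 in NUP98-JARID1A lines. Ltf measured 6.97 against 5.57 and 11.19. Both genes were chosen by r over these same arrays, so their MLL-AF9 levels are no separate check on Stfa3.

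Other probe sets of the stefin cluster differed far less between the groups and stayed at low levels. RefSeq places 12 protein-coding genes in a row on chromosome 16 from Csta1 to Stfa3, between Ccdc58 and Casr. Of these, 3 have a probe set of their own, 4 share one, and for 5 the annotation used here lists none. Csta1, a stefin A relative at the Ccdc58 end of the row, had means of 2.86 in RH-RAS, 2.98 in treated, 3.37 in MLL-AF9 and 3.16 in NUP98-JARID1A arrays. The probe set shared by Cstdc4 and Csta2 had means of 3.94, 4.06, 4.42 and 4.92 in the same order of groups. Both lay below the median on every array. Their NUP98-JARID1A values, 3.07 to 3.25 for Csta1 and 4.46 to 5.63 for the other, still lay above all untreated RH-RAS values, which reached 2.99 and 4.18. Outside the row, Casr, the calcium-sensing receptor gene next to Stfa3, had means of 5.48, 5.65, 5.86 and 5.30 for the higher of its 2 probe sets. Its lower probe set had means of 4.66, 4.78, 5.01 and 5.26. There the NUP98-JARID1A arrays, at 5.20 to 5.36, lay above the untreated RH-RAS arrays, at 4.57 to 4.83.

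**Figure D3:**
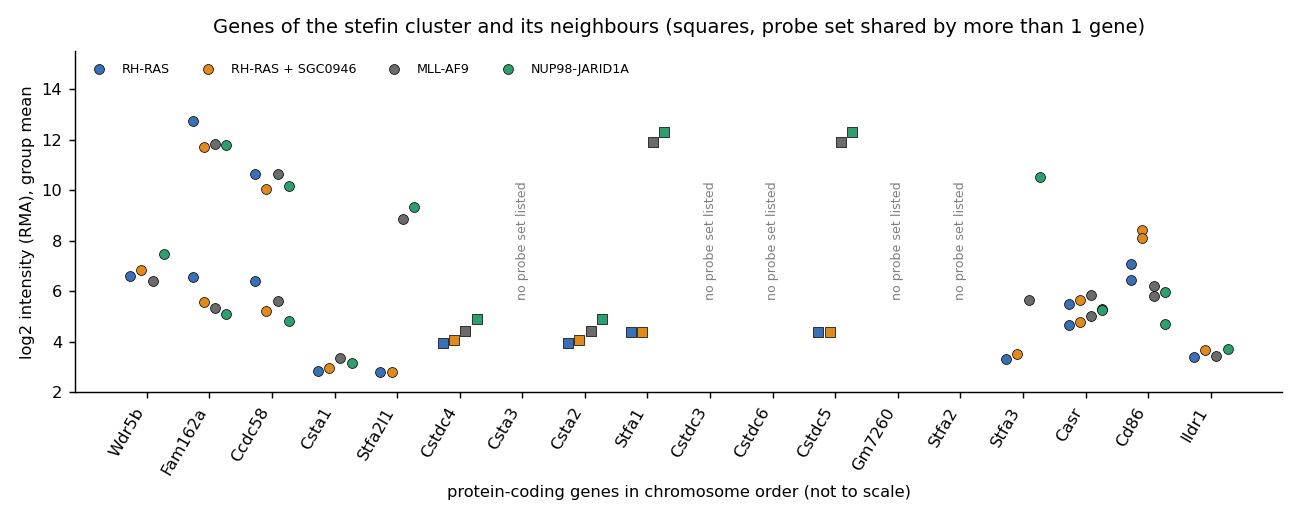
Group mean log2 intensity (y axis) of each probe set of the stefin cluster and of neighbouring genes in chromosome order (x axis, not to scale), with squares for probe sets shared by more than 1 gene. NUP98-JARID1A means of Stfa2l1, Stfa3 and the probe set of Stfa1 and Cstdc5 are 9.32 to 12.30, while those of Csta1 and of the probe set of Cstdc4 and Csta2 are 3.16 and 4.92.

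Stefin B was high in all groups and highest in NUP98-JARID1A lines. The main Cstb probe set measured 11.63, 11.60, 11.55 and 11.87 in untreated RH-RAS lines 1 to 4, 12.59 and 12.51 in treated lines 1 and 3, 12.63 in MLL-AF9 and 12.79, 13.01 and 13.46 in NUP98-JARID1A lines 1 to 3. By this probe set the groups were ordered RH-RAS, treated, MLL-AF9 and NUP98-JARID1A. MLL-AF9 stood only 0.04 above the higher treated array, so these neighbours were not separated, and the other steps showed no overlap. The other Cstb probe set reversed these neighbours, with MLL-AF9 at 11.40 and treated lines 1 and 3 at 11.52 and 11.43. Line 1, which had the most stefin A RNA among the NUP98-JARID1A lines, had the least Cstb.

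SGC0946 left both lines with more Cstb. The change was 0.96 in line 1 and 0.96 in line 3, or 0.96 ± 0.21 (SE, n = 2 and 2 arrays) and 1.94-fold. NUP98-JARID1A exceeded RH-RAS by 1.43 ± 0.16, or 2.69-fold. The other Cstb probe set gave 1.01 ± 0.23 and 1.97 ± 0.18 for these comparisons, and the values of both probe sets had a Pearson r of 0.984 over the arrays.

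Cystatin C was the member with the largest SGC0946 difference, and the only one that was highest in the treated lines. Cst3 measured 11.50, 11.57, 11.60 and 11.86 in untreated RH-RAS lines 1 to 4 and 13.20 and 13.21 in treated lines 1 and 3. It measured 12.47 in MLL-AF9 and 12.64, 12.52 and 12.77 in NUP98-JARID1A lines 1 to 3. The treated arrays lay 1.34 above the highest untreated array, line 4, and above every other array. MLL-AF9 was 0.18 below the NUP98-JARID1A mean, and these neighbours in the order are not separated beyond the spread of the 3 lines (SD 0.13, range 0.25).

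The SGC0946 change of Cst3 was 1.70 in line 1 and 1.60 in line 3, or 1.65 ± 0.14 (SE, n = 2 and 2) and 3.14-fold. NUP98-JARID1A exceeded RH-RAS by 1.01 ± 0.11 (SE, n = 3 and 4), or 2.01-fold. The 3 genes most like Cst3 over the 10 arrays were Rab5c, an endosomal GTPase (r = 0.981), Rbm47, an RNA-binding protein (0.980), and Zfp710 (0.974). Rbm47 had means of 6.91 in RH-RAS, 8.71 in treated, 7.75 in MLL-AF9 and 8.24 in NUP98-JARID1A arrays, which is the same order of groups as for Cst3. It was chosen by r over these same arrays, so this order is no separate check on Cst3.

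Cystatin F varied most among the untreated RH-RAS lines. Cst7 measured 10.16, 10.26 and 10.33 in lines 1 to 3 but 11.07 in line 4, inside the span of the treated arrays (11.20 for line 1 and 11.06 for line 3). It measured 10.69 in MLL-AF9, within the RH-RAS range, and 11.74, 11.33 and 11.67 in NUP98-JARID1A lines 1 to 3, all above the other arrays. Treated and untreated lines 1 and 3 differed by 0.89 ± 0.25 (1.05 and 0.73 in the single lines), and NUP98-JARID1A and RH-RAS by 1.13 ± 0.22. Line 4 exceeded the mean of lines 1 to 3 by 0.82 in Cst7, 0.30 in Cst3 and 0.28 in the main Cstb probe set, and by less than 0.1 in Stfa2l1. A value above those of lines 1 to 3 in line 4 was seen for 33.2% of genes tested.

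Over the 10 arrays the genes most like Cst7 were Hexa, a lysosomal hexosaminidase subunit (r = 0.968), Pdzd11 (0.968) and Pwwp2b (0.966). Hexa ranged from 9.77 to 11.04 in untreated RH-RAS lines. For Cstb they were Stard8 (0.995), Nceh1, a cholesteryl ester hydrolase (0.991), and Ebi3, a cytokine subunit (0.989).

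The stefin A genes did not share the treated lines' higher cystatin levels. SGC0946 differences were −0.04 ± 0.78 for Stfa2l1, 0.13 ± 1.13 for Stfa3 and 0.05 ± 0.94 for the shared probe set, and these SEs are large because they include how far the 3 NUP98-JARID1A lines lay apart. In the 2 lines themselves the changes ran from −0.04 to 0.25. At levels this far below the array median a small response was not detectable.

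**Figure D4:**
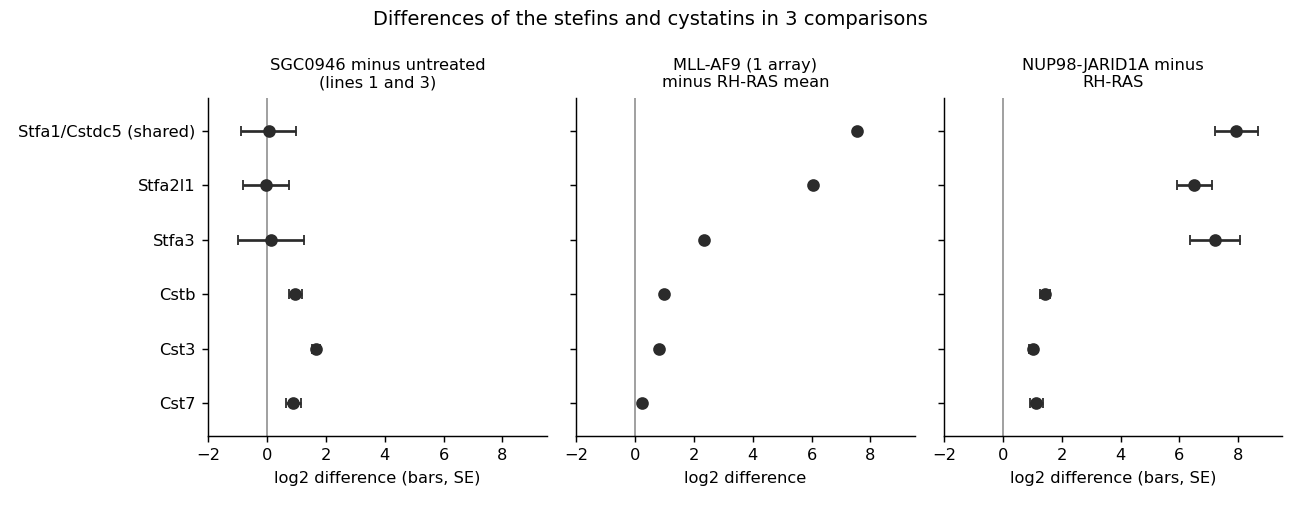
Log2 differences (x axis) of 5 members and the shared probe set (y axis) for SGC0946 in lines 1 and 3, for the MLL-AF9 array and for NUP98-JARID1A, against RH-RAS, with SEs from the fit of all probe sets as bars where there are replicates. Cst3, Cstb and Cst7 differ by 0.89 to 1.65 under SGC0946, whereas the stefin A differences there are within 0.13 of 0.

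By the threshold used for all genes, a limma adjusted p under 0.05 over 11992 genes, 2 of the 5 members tested, Cst3 and Cstb, were called for SGC0946. Of all genes, 12.0% were called, 6.84% as higher and 5.13% as lower, and blocking on the line reduced the calls from 1435 to 847 genes and left 1 member, Cst3. Leaving out any of the 4 arrays of lines 1 and 3 also left 1, Cst3, while 3, with Cst7 added, were called without untreated line 2 or without line 4. All 5 were called for NUP98-JARID1A, where 51.0% of genes were called, 32.5% as higher and 18.5% as lower. Both treated arrays lay above all 4 untreated ones for 2 of 5 members (26.6% of genes), and all 3 NUP98-JARID1A arrays lay above all RH-RAS arrays for 5 of 5 (34.8% of genes). In MLL-AF9, 2 of 5, Stfa2l1 and Stfa3, were at least 2 from the RH-RAS mean and outside its range (4.35% of genes, 2.62% higher and 1.73% lower). Stfa3 and Stfa2l1 passed the filter on low values only through their levels outside the RH-RAS lines, and nothing is read from these counts, since the members were proposed with these values known. The comparisons share the untreated RH-RAS arrays.

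The proteases that cystatins bind were not used to choose the members, but the gene lists were also chosen with earlier results of these data known. Counts and p-values for this list and the lists below therefore describe these arrays and are no independent support. Under SGC0946, 5 of the 11 cysteine cathepsins and legumain rose, 1 fell and 5 did not pass, where 6.84% of all genes rose and 5.13% fell. The median difference was 1.31 against 0.02 for all genes tested. Blocking on the line left 4 higher and 0 lower, with 7 at an unadjusted p under 0.05 by limma. These calls also depended on single arrays: with any 1 of the 4 arrays of lines 1 and 3 left out, at most 2 of the 11 were called. Cathepsin B (Ctsb), a lysosomal protease of many cells, measured 10.91 and 11.06 in untreated and 13.04 and 13.14 in treated lines 1 and 3. It rose by 2.10 ± 0.28 (SE, n = 2 and 2; limma adjusted p = 0.00632), and its 5 probe sets gave 0.50 to 3.00. With 1 array of lines 1 or 3 left out its limma adjusted p was 0.0565 to 0.0708. Cathepsin S (Ctss), which processes the MHC class II invariant chain, rose by 2.02 ± 0.34, or 4.05-fold (limma adjusted p = 0.0136).

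Cathepsin C (Ctsc), the protease restrained by cystatin F, measured 11.72 and 11.67 in untreated and 12.93 and 13.08 in treated lines 1 and 3. It rose by 1.31 ± 0.12 (limma adjusted p = 0.00347; 0.0537 without treated line 3). Cathepsin H (Ctsh), an aminopeptidase, rose by 1.81 ± 0.42 (limma adjusted p = 0.0332; 0.105 when blocked on the line, and 0.0504 without untreated line 2 or line 4). Ctsz also rose, by 1.76 ± 0.18, and is named here after its value was seen. Ctsw, a cathepsin of cytotoxic lymphocytes, fell by 2.52 ± 0.63 (limma adjusted p = 0.0428; 0.0645 when blocked on the line). Legumain (Lgmn), an asparaginyl protease that type 2 cystatins also bind, was at 2.16 ± 0.70 and Ctsl at 0.72 ± 0.46, and neither passed (limma adjusted p = 0.0941 and 0.388). Lgmn changed by 2.07 in line 1 and 2.25 in line 3, and Ctsl by 0.72 in each. Their SEs include the spread of the NUP98-JARID1A lines (SD 1.26 and 0.80). With the arrays of lines 1 and 3 alone both passed (limma adjusted p = 2.21e-05 and 0.00116). Blocked on the line neither did (0.186 and 0.482). The other Ctsl probe set gave 0.04.

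In NUP98-JARID1A lines 3 of the 11 proteases were higher, 4 were lower and 4 did not pass, where 32.5% of all genes were higher and 18.5% lower. The median was 0.08 against 0.10 for all genes. Ctsb was higher by 2.38 ± 0.23 and Ctsz by 1.97 ± 0.16 (SE, n = 3 and 4; limma adjusted p = 0.000204 and 0.00011). Lgmn was lower, at −2.93 ± 0.56, as were Ctsh at −1.91 ± 0.32 and Ctsl at −1.43 ± 0.37 (limma adjusted p = 0.00399, 0.00222 and 0.0149), though the other Ctsl probe set gave 0.14. Ctss at 0.68 ± 0.29 and Ctsc at −0.20 ± 0.09 did not pass (limma adjusted p = 0.0822 and 0.11). Ctss passed without RH-RAS line 4 (0.0199) and Ctsc without NUP98-JARID1A line 3 (0.0339).

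In NUP98-JARID1A lines 1 to 3, Lgmn measured 6.59, 7.50 and 9.08 and in MLL-AF9 7.84, where untreated RH-RAS lines measured 10.31 to 11.40 and treated lines 12.49 and 12.56. In MLL-AF9, 2 of the 11 were at least 2 below the RH-RAS mean and outside its range, Lgmn at −2.81 and Ctsw at −2.51.

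**Figure D5:**
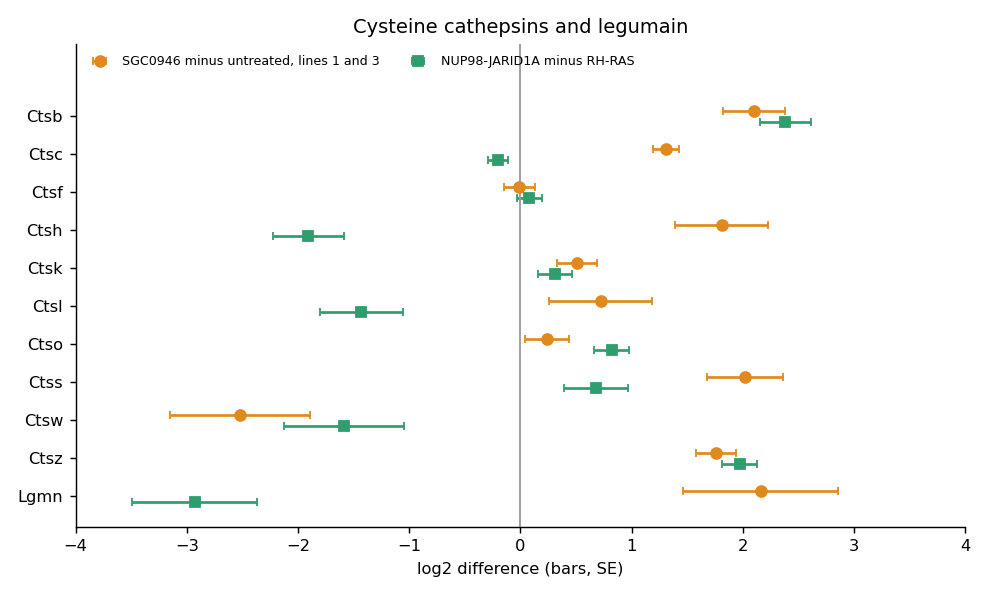
Log2 difference (x axis, bars are SE) of 11 cysteine cathepsins and legumain (y axis) for SGC0946 in lines 1 and 3 (circles) and for NUP98-JARID1A against RH-RAS (squares). Ctsb and Ctsz are higher in both comparisons, and Ctsh and Lgmn lie on opposite sides of 0, at 1.81 and 2.16 for SGC0946 and at −1.91 and −2.93 for NUP98-JARID1A.

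Monocyte and macrophage markers moved with the cystatin and cathepsin differences under SGC0946. Of 9 (Csf1r, Cd14, Mrc1, Lyz2, Adgre1, Fcgr1, Itgam, Ccr2 and Cd68), 8 rose, where 6.84% of all genes rose, and the other did not pass. Their mean level was 7.56 to 7.59 in untreated lines 1 to 3, 8.93 in line 4, 11.12 and 11.23 in treated lines, 8.61 in MLL-AF9 and 9.51 to 10.48 in NUP98-JARID1A lines. Progenitor markers moved too, with 3 of 6 lower by limma, where 5.13% of all genes were lower. Their mean level was 12.21 to 12.29 in untreated and 11.26 and 11.33 in treated lines, and Kit, the receptor of stem cell factor, measured 10.52 and 10.71 in untreated and 8.71 and 8.56 in treated lines 1 and 3. Of the T and NK markers, which include Gzma, 3 of 5 fell, and their mean level was 7.06 in untreated line 4, 8.27 to 8.38 in the other untreated lines and 5.69 to 5.71 in treated lines. Mrc1 and Adgre1 lay below the median on all untreated RH-RAS arrays and passed the filter on low values only through the other groups. Cd3g, Gzma and Prf1 passed it only through untreated RH-RAS arrays. The counts that include these genes are therefore description only. The part of these markers in the results was not tested. Fibroblast and stromal markers averaged 4.95 to 5.09 on RH-RAS arrays, treated or not, 5.67 in MLL-AF9 and 5.49 to 6.23 in NUP98-JARID1A lines. Of these, Fn1 measured 10.46, 8.06 and 10.44 in NUP98-JARID1A lines 1 to 3, while Col1a1, Col1a2 and Col3a1 lay below the median on all arrays.

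Among the granule proteases that cathepsin C activates, Prtn3 rose under SGC0946 and Gzma, a protease of cytotoxic lymphocytes, fell. These were 1 riser and 1 faller among 5 tested, and 3 did not pass (median 0.12, against 0.02 for all genes), and neither call held with 1 array of lines 1 or 3 left out. Of all genes tested, 6.84% rose and 5.13% fell. Proteinase 3 (Prtn3) rose by 2.09 ± 0.33 (limma adjusted p = 0.0112), and granzyme A (Gzma) fell by 5.25 ± 0.68 (limma adjusted p = 0.0061). In NUP98-JARID1A lines 3 were higher, 1 was lower and 1 did not pass (median 2.56, against 0.10), where 32.5% of all genes were higher and 18.5% lower. Cathepsin G (Ctsg) was higher by 5.06 ± 0.45, neutrophil elastase (Elane) by 4.16 ± 0.77 and Prtn3 by 2.56 ± 0.33, and Gzma was lower at −5.26 ± 0.58 (limma adjusted p = 0.000136, 0.00337, 0.000678 and 0.000338). In MLL-AF9, Elane was 7.85, Ctsg 5.33 and Prtn3 3.03 above the RH-RAS mean, and Gzma was at −5.15 from it. Elane measured 5.25 to 5.40 in untreated RH-RAS lines and 11.49, 7.65 and 9.32 in NUP98-JARID1A lines 1 to 3, the same order of lines as in the stefin A genes. It passed the filter on low values only through the MLL-AF9 and NUP98-JARID1A arrays, and Gzma only through the untreated RH-RAS arrays. Their calls and p-values, and the counts that include them, are therefore description only.

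Protease inhibitors and their relatives outside the cystatin superfamily were compared as a second list. Under SGC0946, 3 of 13 tested rose, 2 fell and 8 did not pass (median 0.07, against 0.02 for all genes). Of all genes tested, 6.84% rose and 5.13% fell. Serpinf1, a serpin that does not inhibit proteases, rose by 3.33 ± 0.79 (limma adjusted p = 0.0371; 0.0779 when blocked on the line), Wfdc17 by 2.53 ± 0.33 and Slpi, an inhibitor of elastase and cathepsin G, by 2.29 ± 0.42 (limma adjusted p = 0.0061 and 0.0169). Serpini1 fell by 1.70 ± 0.41 (limma adjusted p = 0.0381; 0.0688 when blocked on the line). Spint2, named after its value was seen, also fell. Blocked on the line, 2 of the 13 were higher and 0 were lower, with 5 at an unadjusted p under 0.05 by limma, so the calls of both Serpini1 and Spint2 were lost.

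In NUP98-JARID1A lines 7 of the 13 were higher, 2 were lower and 4 did not pass (median 0.83, against 0.10). Of all genes tested, 32.5% were higher and 18.5% lower. Wfdc21 was higher by 5.05 ± 0.62, Wfdc17 by 4.59 ± 0.28, Serpinf1 by 4.32 ± 0.67 and Slpi by 3.29 ± 0.33 (limma adjusted p of at most 0.00147). Wfdc21 measured 5.17 to 5.52 in untreated RH-RAS lines, 5.57 and 5.41 in treated lines, 10.39 in MLL-AF9 and 11.63, 8.68 and 10.98 in NUP98-JARID1A lines 1 to 3. Its low and high arrays were those of Stfa2l1 and the probe set of Stfa1 and Cstdc5, but not of Stfa3, which was low in MLL-AF9. Wfdc21 passed the filter on low values only through the MLL-AF9 and NUP98-JARID1A arrays, so its call too is description only. In MLL-AF9, Wfdc21, Slpi at 2.73 above the RH-RAS mean and Serpinb6b at −2.57 were outside the RH-RAS range by the same rule.

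Other genes of the cystatin superfamily gave little signal on probe sets of their own. Cstdc5, Cstdc4 and Csta2, also on this list, have only the shared probe sets described above, and that of Cstdc5 and Stfa1 was high. Of 31 listed, 13 had a probe set of their own and 12 of these lay below the median on every array, with no level above 5.42. The cystatin relative Cstdc2 alone was tested and did not pass, at −0.06 ± 0.22 for SGC0946 and −0.42 ± 0.18 for NUP98-JARID1A (limma adjusted p = 0.915 and 0.0936). Without the filter on low values, 2 of the 13 were called higher and 1 lower for NUP98-JARID1A. Of all 18193 genes, 4292 were then higher and 2401 lower. For SGC0946, 0 of the 13 were called.

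The calls for SGC0946 rest on 2 arrays against 2, and 12.0% of all genes tested were called. Across the 4 lists 13 genes were called, 9 when blocked on the line, and 12 without untreated line 2 or without line 4. With untreated line 1, untreated line 3, treated line 1 or treated line 3 left out, 2, 3, 2 and 0 genes were called by limma. In the last case 13 had an unadjusted p under 0.05. Ctsb, Ctss, Ctsh, Ctsw, Prtn3, Gzma, Wfdc17, Serpinf1 and Serpini1 passed in none of these 4 fits. Their limma adjusted p ran from 0.0542, for Gzma, to 0.223, for Serpini1. Slpi passed in 1 of the 4 and Ctsc in 3, and all these genes kept the direction of their difference.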

How the data were processed

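The authors deposited RMA values on a log2 scale, with RMA named in the submitters' processing notes. The labels state no version or scan date. Columns of the 45101 probe sets differed by at most 0.163 once sorted, so nothing was renormalised. RMA gives no detection calls, and precision is limited by how many arrays there are. Of the probe sets, 34958 had 1 gene symbol and 932 several. A gene took its probe set with the highest mean and was tested if 2 or more of 10 arrays had it above their median. Fits used limma 3.58.1 (R 4.3.3) and were tested on simulated data. The SGC0946 fit used all 10 arrays and 5 coefficients, so untreated lines 2 and 4 and the other groups entered only the spread. The NUP98-JARID1A fit used the 8 arrays without inhibitor. Treated and untreated lines 1 and 3 are paired by the line their titles name (deviations correlated at r = 0.292). Adjusted p-values are Benjamini-Hochberg values over all genes tested. The members and gene lists were chosen with earlier results of these data known. Named genes were the members, up to 4 genes a list and comparison with the largest difference among those called, the proteases Ctsb, Ctsc, Ctsl, Ctss and Lgmn, and 3 genes most correlated with each member. Alternatives changed the filter, probe sets, centring, spread model, weights, arrays, control and block. Identities came from global alignment in Biopython 1.88.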

Additional observations from a re-analysis of the deposited data

Results flagged for a closer look

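Among 25 gene or probe set values named in the text, each tested over the 4 untreated RH-RAS arrays for one far from the rest, RH-RAS line 4 stood apart in 5, all of them genes of the protease lists and none a member of the family. Chance flags about 1 in 20 such groups, and genes on one array are not independent. Ctsl measured 12.57 in line 4 and 11.77 to 11.82 in the other lines. Ctss measured 12.05 against 11.20 to 11.23, and Ctsz 12.31 against 11.68 to 11.72. Lgmn measured 11.40 against 10.31 to 10.48. Prtn3 measured 12.20 against 10.86 to 11.02. Cst7, a member that was not flagged, was also highest in line 4, at 11.07 against 10.16 to 10.33. The probe set shared by Stfa1 and Cstdc5 changed in opposite directions under SGC0946, by 0.14 in line 1 and −0.03 in line 3, far below the array median, and this difference was not tested.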

How the results depend on the processing

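For NUP98-JARID1A, the 6112 genes called became 12828 with every probe set tested on its own (34 in place of 20 for the protease and inhibitor lists). Leaving out 1 array gave 5121 to 5898 genes, and 18 to 21 in the lists. The line numbers shared with RH-RAS lines are numbers only (same-number r of −0.0542, −0.0188 and 0.0702), and a replicate block on them gave 4938. For SGC0946, 1435 genes were called, against 847 with the line as a replicate block, 2237 with every probe set on its own, 3709 with array weights and 3747 with the arrays of lines 1 and 3 alone. Leaving out 1 array gave 28 to 1483, with 28 and 129 when the treated array of line 3 or 1 was dropped, 124 and 147 when the untreated array of line 3 or 1 was, and 1483 for line 2 or 4. In the lists 13 genes were called, against 20 with every probe set on its own, 21 with the arrays of lines 1 and 3 alone, and 0 to 12 with 1 array left out, where a lone array is assumed to vary like the other groups. The cause was not tested, beyond fewer arrays, and no called value changed sign. Values near 0 that were not called did: the SGC0946 difference of Stfa2l1 was −0.04, and 0.02 with array medians subtracted, and that of Stfa3 was 0.13, and −0.12 without treated line 1. With plain probe sets only, Cst3 had no value and Cstb was represented by its other probe set. Calls of the members are given as counts only and say nothing of stability, since the members were proposed with these levels known. In untreated RH-RAS lines Stfa2l1 and Stfa3 lie near the bottom of the RMA range, at percentiles 1.08 to 2.97 and 7.39 to 10.9. The probe set shared by Stfa1 and Cstdc5 is less low, at percentiles 23.9 to 28.9. Such low levels limit what could be seen there.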
